A study of Drosophila melanogaster with 4 samples.

Results

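The replication-dependent histone gene cluster of Drosophila melanogaster was examined in a map of histone H3 in adult fly heads. It was taken as chromosome arm 2L from 21400 to 21600 kb on FlyBase release 5, a window of 200 kb. Of the 21863 H3-enriched regions in the 3 deposited lists, 4 met this window. The replicate 1 list gave 0 of its 2327 regions, the replicate 2 list 1 of 2779, and the combined list 3 of 16757. The combined list belongs to the whole series and names no sample, and it was read here as made for the replicates together. The study used chromatin immunoprecipitation and sequencing (ChIP-seq) on head nuclei of mixed adult flies of the wild-type strain Oregon-R. The antibody, called H3 antibody3 in the labels, was used for 2 ChIP libraries, each of which had its own Input library of chromatin that had not been immunoprecipitated. No other genotype or treatment was studied, and the labels leave unsaid whether the replicates stem from separate fly cages, so their spread may be technical.

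Histone H3 is a core protein of the nucleosome, the unit in which DNA is packed, so it is present along nearly all of the genome. The genes for the replication-dependent histones are transcribed in S phase to package newly copied DNA. In Drosophila they lie in a tandem array, each unit holding 1 gene for each of 5 proteins: the linker histone H1 (His1) and the core histones H2A (His2A), H2B (His2B), H3 (His3) and H4 (His4). In dividing cells the array sits in the histone locus body, a nuclear structure built with the factors mxc and mute. Most cells of an adult head are no longer dividing. Such cells draw on replication-independent variants such as His3.3A and His3.3B, which encode the H3.3 form of histone H3 outside the array. The Drosophila factor Clamp binds the array, Slbp binds the end of the histone mRNAs, and Lsm10 and Lsm11 belong to the particle that processes those ends.

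The repeats themselves limit what can be read from this place. In the RefSeq gene table, which is on release 6 and was used here for names and gene order only, 111 genes carry the symbols of the 5 classes, and all 111 are on 2L. They comprise 23 His1 genes (the outermost on one side is His1:CG33801), 20 His2A genes (such as His2A:CG31618), 23 His2B genes (such as His2B:CG33910), 23 His3 genes (such as His3:CG33803) and 22 His4 genes (such as His4:CG33909). Along the arm, 95 of them stand in 19 complete units in the order His1, His2B, His2A, His4, His3, and 16 lie outside a complete unit. Between the first and the last histone gene the table lists 24 other entries, 20 of them small non-coding RNAs and 4 histone pseudogenes, and 0 other protein-coding genes. The protein-coding neighbours are nrv3, CG8665 and Gr39b going outwards on one side, and Lamp1, nompB and CG2201 on the other. A short read from a sequence that occurs in many copies cannot be assigned to 1 of them, and how such reads were treated is not given in the sources used here. An absent region in the array is therefore not evidence of absent H3. The place of the array in the release 5 window was not checked here, because no release 5 annotation was used.

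The window was almost bare of enriched regions. In the combined list 4898 bp of it, or 2.45%, lay in a region, against 11.0% of the flanks (500 kb on each side) and 21.8% of the rest of 2L. The window is 0.869% of the arm's length and held 0.101% of the arm's combined bases. Replicate 1 covered 0% of the window and replicate 2 covered 0.779%, a mean of 0.390% ± 0.551 (SD, n = 2). The flanks had 0.724% in replicate 1 and 0.730% in replicate 2 (0.727% ± 0.0041), and the rest of 2L had 2.75% and 3.40% (3.07% ± 0.465). The window lay below the rest of 2L in all 3 lists. It lay below the flanks in replicate 1 and in the combined list, but not in replicate 2, where its single region makes a ratio of 1.07 to the flanks. The ratio of window to flanks was 0.222 in the combined list, and 0.535 ± 0.757 over the replicates, so the replicates do not fix its direction. In the combined list the ratio was 0.555 with regions at or above the median score and 0.350 with regions of at least 1500 bp. No test was made between places, since each of the 2 ChIP libraries gives 1 value per place. Read depth was not at hand, so no counting interval is given.

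**Figure D1:**
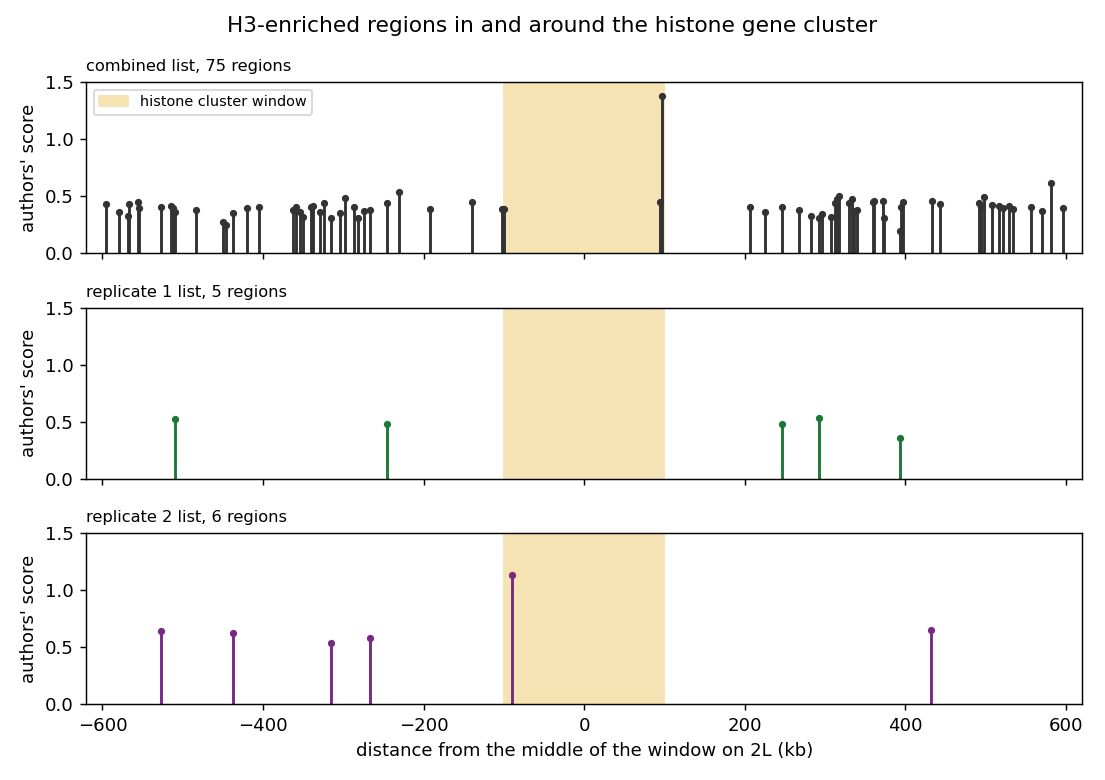
H3-enriched regions from 600 kb before to 600 kb after the middle of the histone cluster window on 2L (x axis, kb), 1 panel per deposited list, each line standing at the middle of a region with the authors' score as its height (y axis, scale not given). The shaded window is empty in replicate 1, holds 1 region near its left edge in replicate 2, and in the combined list holds regions only at its edges.

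Each of the 4 regions in the window lay near an edge. On the left, the combined region 2L:21399078-21400896 (1819 bp, score 0.391) straddled the boundary, with 896 bp inside. Farther in, 8265 bases beyond the end of that region, came the replicate 2 region 2L:21409162-21410719 (1558 bp). Its score of 1.13 was the highest of the 476 replicate 2 regions on 2L, 1.37 times the next (0.826), against an arm median of 0.588. No combined region met it, which was so for 16 of the 476 replicate 2 regions on the arm (3.36%). The nearest replicate 1 region was 153731 bp away. The score is the authors' own value for each region, and the sources used here do not say how it was computed.

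On the right edge stood a pair of combined regions 1581 bp apart. The first, 2L:21592417-21595417, was 3001 bp long with a score of 0.451, and ranked 148th in length among the 2996 combined regions of 2L. The second, 2L:21596999-21597999, was 1001 bp long, the shortest length listed on the arm, with a score of 1.38. That score ranked 5th on 2L, against an arm median of 0.405. The 3 combined regions of the window were met by 0 regions of replicate 1 and 0 of replicate 2. Over all of 2L, 12.4% of combined regions were met by replicate 1, 15.3% by replicate 2 and 2.37% by both, so 0 of 3 is near the background.

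Between the left and right edge the combined list was empty over 191520 bp, from 2L:21400897-21592416, which is 95.8% of the window. This was the longest of 2995 gaps between combined regions on 2L. It was 60.1 times the median gap of 3188 bp and 1.75 times the next longest, 2L:22855339-22964987 (109649 bp). A further gap that meets the window, 2L:21598000-21705616 (107617 bp), ranked 3rd. The 4th and 5th were 2L:22632753-22701848 (69096 bp) and 2L:22273005-22340447 (67443 bp). On 2L 14 gaps exceeded 50 kb (0.467%), and 2 of the 3 gaps meeting the window were among them. The remaining one is the 1581 bp between the regions at the right edge. From the start of the longest gap to the end of the one ranked 3rd, 304720 bp held only those 2 regions, with 1.31% of its bases covered. Over the 5 major arms together the gap ranked 1st of 15868, 1.39 times the next. The window was proposed with this gap already known, so its rank is a description.

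Each replicate list also had its longest gap of 2L here. How far the lists were called independently of each other is not stated. In replicate 1 the gap ran over 2L:21255432-21746101 (490670 bp), and held the whole window. It was 14.0 times the list's median gap of 34991 bp and 1.22 times the next longest, 2L:8397544-8799341 (401798 bp). In replicate 2 it ran over 2L:21410720-21931836 (521117 bp) and held 94.6% of the window. That was 19.6 times the list's median gap of 26594 bp and 1.18 times the next longest. That next longest gap, 2L:21933228-22375364 (442137 bp), was the neighbouring gap of the list on the centromeric side. In both lists most of the gap lay outside the window. The mean was 505894 ± 21529 bp (SD, n = 2), and both lists were empty together over 335382 bp. In neither list did it stand as far from the next gap as in the combined list. On the other major arms longer gaps occurred, so that it ranked 8th of 2218 in replicate 1 and 4th of 2653 in replicate 2. All 3 lists were empty over 2L:21410720-21592416, 181697 bp, which was 1.66 times the next such stretch on the arm.

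**Figure D2:**
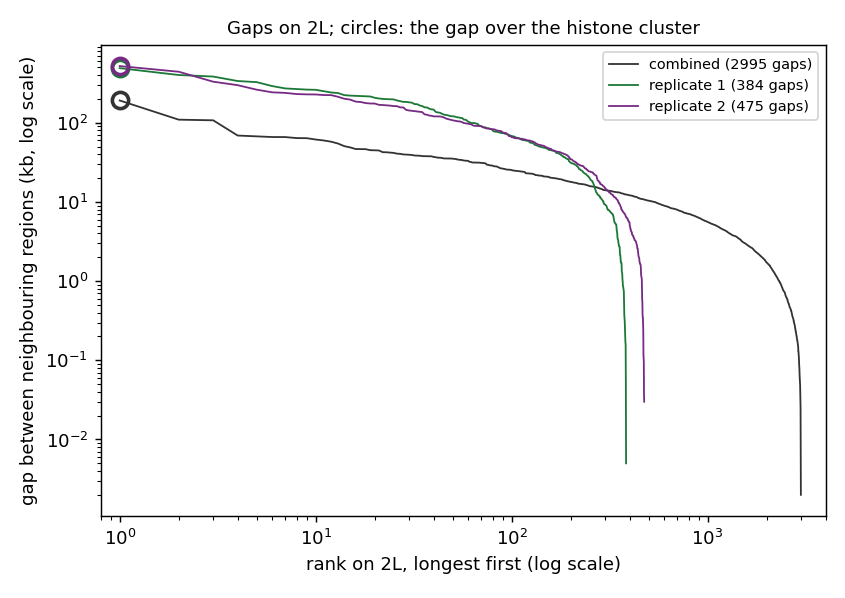
Length of every gap between neighbouring enriched regions on 2L (y axis, kb, log scale) against its rank from the longest (x axis, log scale), 1 line per list. Circles mark the gap over the middle of the histone cluster window, which ranks 1st in each list, at 191520 bp in the combined list, 490670 bp in replicate 1 and 521117 bp in replicate 2.

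The flanks were then examined for how the landscape approaches the array. The window had 1.50 combined regions per 100 kb, against 7.20 per 100 kb in the flanks, which held 72 regions, 36 on each side. In the combined list the left flank had 55126 covered bases and the right flank 55107, so the sides were nearly equal at 11.0% each. In replicate 1 the left flank was 0.581% covered and the right 0.867%. In replicate 2 these were 1.18% and 0.278%, so the replicates differed in direction. Both flanks were sparser than the rest of 2L. The flanks' covered share was 0.506 times that of the rest in the combined list. It was 0.264 times in replicate 1 and 0.214 times in replicate 2 (0.239 ± 0.0354, SD, n = 2). The left 100 kb of the window was 0.896% covered and the right 100 kb 4.00%. Coverage was also low in the 100 kb next to the window, at 4.40% on the left and 0% on the right. Beyond, it reached 16.5% at the outer end of the left flank. On the right it was 9.22% in the next 100 kb and 22.5% in the one after, the only one of the 10 flanking bins above the rest of the arm.

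**Figure D3:**
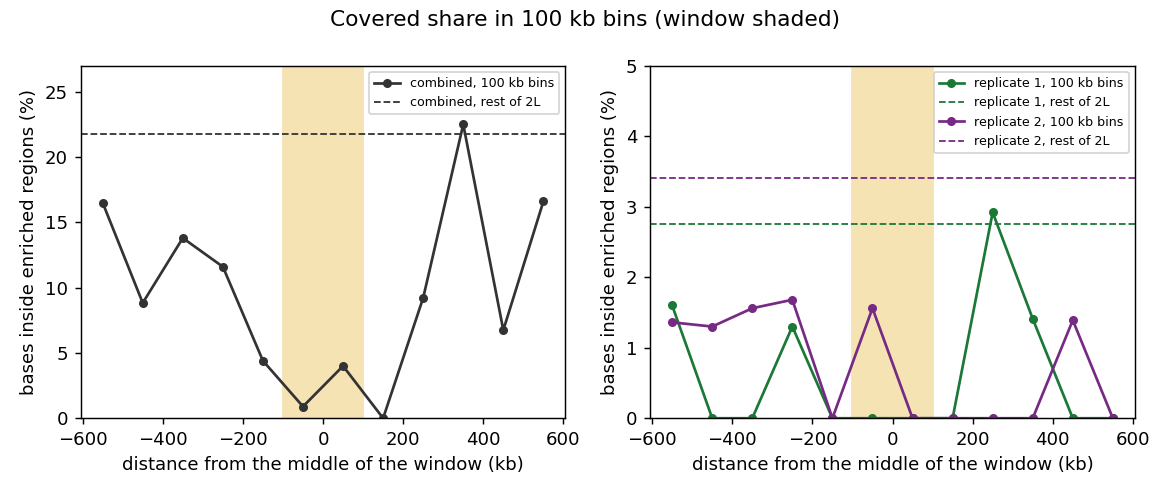
Percent of bases inside enriched regions in 100 kb bins (y axis) by distance from the middle of the histone cluster window (x axis, kb), for the combined list (left) and both replicate lists (right). Dashed lines give the rest of 2L (21.8%, 2.75% and 3.40%), and the window is shaded; in the combined list the dip reaches past the window to the bin at its right, which is at 0%.

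Regions in the flanks resembled those of the arm in size and score. The combined flank regions had a median length of 1339.5 bp, against 1419 bp in the rest of 2L, and a median score of 0.403 against 0.405. The median length was 1420 bp against 1483 bp in replicate 1, and 1391 bp against 1484 bp in replicate 2. In replicate 1 the 5 flank regions had a median score of 0.481 and a highest of 0.531, against a median of 0.572 in the rest of the arm. In replicate 2 the median score of the 5 flank regions was 0.623, against 0.588. Over all lengths the direction of the score difference thus differed between the replicates. The highest scores in the left flank belonged to 2L:21268788-21270040 (0.541), 2L:21201140-21202352 (0.489) and 2L:21359764-21360764 (0.451). In the right flank they belonged to 2L:22081382-22082386 (0.621), 2L:21816438-21817594 (0.506) and 2L:21997369-21998674 (0.498). None of these 6 scores approached the 1.38 at the right edge of the window.

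The longest flank region was 2L:22019269-22024084 on the right (4816 bp, 16th in length on the arm). It was followed there by 2L:21838720-21841626 (2907 bp) and 2L:21895814-21898704 (2891 bp). On the left the longest were 2L:20989431-20992136 (2706 bp), 2L:20919672-20922323 (2652 bp) and 2L:21253548-21256045 (2498 bp). The flank regions nearest the window were 2L:21397532-21398998 (1467 bp) in the combined list, 1003 bp to its left, and 2L:21705617-21706809 (1193 bp), 105617 bp to its right.

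The replicates each listed 5 flank regions, in different places. Replicate 1 had 2 on the left and 3 on the right, and replicate 2 had 4 on the left and 1 on the right. The nearest to the window were 2L:21254129-21255431 (1303 bp, score 0.477) and 2L:21746102-21747521 (1420 bp, score 0.481) in replicate 1. In replicate 2 they were 2L:21232219-21233900 (1682 bp, score 0.585) and 2L:21931837-21933227 (1391 bp, score 0.655). None of the 5 from replicate 1 met one from replicate 2, and the reverse holds as well, so both counts were 0. Over all of 2L 16.6% of replicate 1 regions and 13.2% of replicate 2 regions met the other list, so counts of 0 of 5 are near the background. All 10 met a combined region, so that the replicate 2 region inside the window was the only one of the 11 replicate regions from 20900 to 22100 kb that did not. Over all of 2L 96.6% of the regions of each replicate list met a combined region, so 10 of 10 is near the background. Of the 72 combined flank regions 5 (6.94%) were met by replicate 1 and 5 by replicate 2. In the rest of the arm the shares were 12.5% and 15.5%. No test was made of this difference. Both replicate lists together met 0 of the 72, against 2.43% in the rest of the arm, so 0 of 72 is near the background.

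Set among all 115 windows of 200 kb on 2L, the histone cluster window was the 2nd least covered in the combined list. It was 1 of 3 (2.61%) under 5%, where the median window had 20.6%. In replicate 1 it was 1 of 11 windows with no region (9.57%), where the median was 2.34%. In replicate 2, where 6 windows had none (5.22%), it ranked 18th from the lowest, at 0.779% against a median of 2.97%. The least covered window lay at the centromeric end, from 22800 to 23000 kb (1.94%). The 3rd adjoined the histone window on its right, from 21600 to 21800 kb (4.61%). All of the 5 lowest windows lay from 21000 kb on, among the last 10 windows of the arm, whose median was 8.31% and whose highest value was 14.6%. The replicate lists were mostly low in this end too, but had 3.02% and 3.05% from 22400 to 22600 kb, above their medians. In the combined list the window had 0.276 times the share of the last 2 Mb of 2L outside it, which was 8.88%. In replicate 1 the window was 0% covered, against 0.722% of those 2 Mb, and in replicate 2 it was 0.779% covered, against 1.03%. Over all of 2L outside the window the shares were 21.3% in the combined list, 2.66% in replicate 1 and 3.29% in replicate 2. The window thus lies in an end of the arm that was sparse in all 3 lists. By the definition used it also holds the repeated copies of the array, whose extent in it was not measured. The part of either in the low coverage of the window was not tested.

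**Figure D4:**
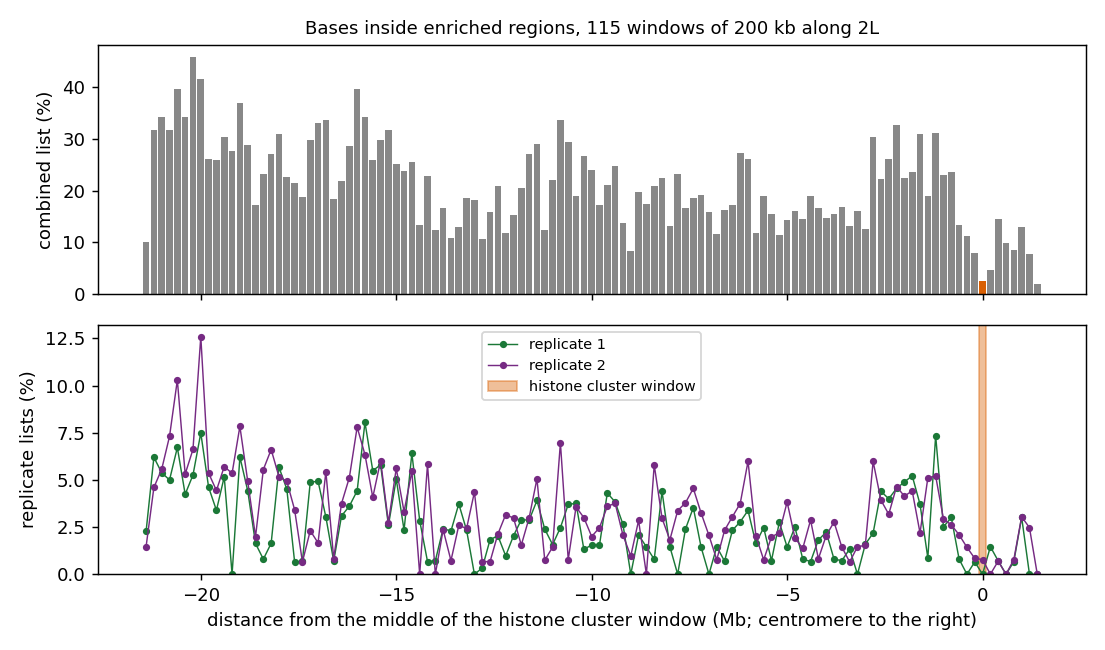
Percent of bases inside enriched regions in the 115 windows of 200 kb along 2L (y axis), by distance from the middle of the histone cluster window (x axis, Mb, centromere to the right), for the combined list (top, histone window in orange) and the replicate lists (bottom). The histone window stands at 2.45% in the combined list, and the last 10 windows of the arm, which include it, lie between 1.94% and 14.6% there.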

How the data were processed

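The labels describe 2 H3 ChIP libraries and 2 Input libraries from heads. Chromatin was fixed with formaldehyde and sonicated, per the labels' protocols. The submitters' processing notes list Bowtie 0.12.7. Coordinates are on FlyBase release 5, per the file headers. The authors deposited 3 lists of enriched regions with a score per region, whose scale is not stated. The region caller, its threshold, the joining of replicates, the treatment of reads with several matches and the depth of sequencing were not found in the labels or headers, so the precision that depth gives is unknown.

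The window was 2L 21400001 to 21600000, and a region meeting it by 1 bp was counted. Covered bases, gaps between neighbouring regions and overlaps were computed with Python 3.11.15, numpy 2.4.6 and pandas 2.3.3, and the functions were tested on simulated region lists. Ranks and shares are descriptions without tests. The members, gene lists and alternatives were chosen with earlier results of these data known. The rule for named items took all regions and gaps meeting the window, the 5 longest gaps on 2L, the nearest regions, and in each flank the 3 highest by score and by length. The likeness of the histone copies in sequence was planned but not analysed, since no sequence was at hand. Gene names and order come from a RefSeq table on release 6, whose positions were not used. Alternatives were a median score limit, merging within 500 bp, a length limit of 1500 bp, each replicate list alone, other flank and window sizes, other gap definitions and stricter overlaps.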

Additional observations from a re-analysis of the deposited data

How the results depend on the processing

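With regions of at least 1500 bp, the gap over the histone cluster ranked 2 on 2L, because dropping shorter regions joined gaps into 2L:22765817-22964987 (199171 bp). With the median score limit the gap was 231652 bp, the window ranked 6 among 200 kb windows, and 3.70% of flank regions were met by replicate 1 and by replicate 2, against 6.94% each without it. For these the cause was not tested, beyond fewer regions being kept. With regions of at least 1500 bp, the replicate 2 flank scores were -0.0245 from those of the rest of 2L, against 0.0347 over all lengths. With one replicate list alone the window was 0% to 0.779% covered, the gap 490670 to 521117 bp long, the ratio of window to flanks 0 to 1.07, and the window's rank 1 to 18. Leaving out the right-edge region of score 1.38, an alternative added after the data were seen, made the gap ranked 3rd 110199 bp long. With that region it was 107617 bp. The longer gap then exceeded the one ranked 2nd, 2L:22855339-22964987 (109649 bp). The ratio of window to flanks was 0.555 with the median score limit and 0.350 with regions of at least 1500 bp, against 0.222. Over all alternatives, 32 values equalled the main value or stayed within 1 SD of the replicates from it, and 10 did not. For the ratio, for the rank among windows and for the flank scores that SD is wide. The change of sign of the replicate 2 flank scores was thus counted as within it. For the gap's rank and the shares of flank regions met, the replicates were equal, so any change counted. The alternatives with each replicate list alone were judged by the spread of those same lists. No paired analysis was possible because no result comes from a test and the lists hold no separate values for the Input libraries. Copies of 1 sequence limit read placement, and unknown depth means that a place without a region is not shown to lack H3. The planned comparison of a shorter promoter span was not run.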

Other observations

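The high score at the right edge of the histone window has few counterparts on 2L. Of the 2996 combined regions of the arm, 8 had a score over 1, and 4 of these had the shortest listed length of 1001 bp, which 94 regions of the arm share. None of the 8 was met by replicate 1 or by replicate 2, as was so for 74.7% of the arm's combined regions. The longer of the gaps beside each was 17683 bp at the median, against 6076 bp over all regions of 2L. Beside the region at the histone window it was 107617 bp, and beside 2L:22270936-22273004 (score 1.02) it was 67443 bp. These 2 of the 8 adjoined a gap over 50 kb, where 0.935% of all 2L regions did. Both lie in the last 2 Mb of 2L, where 8 of the 14 gaps over 50 kb started, so that share is not a like background. The region at the histone window also lies in a window that was proposed with its longest gap already known. The limit on the score was chosen after its values were seen.

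Long gaps were frequent at the centromeric end of 2L. Of the 14 gaps over 50 kb on the arm, 8 started in its last 2 Mb, which held 108 of the 2995 gaps. Of these 8, 2 meet the histone window. Without them it was 6 of 12.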
